A study of Mus musculus with 24 samples.

Results

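The comparison described here is the effect of etomoxir minus the effect of a MYC inhibitor on the RNA of naive mouse embryonic stem cells (ESCs), that is, what separates 2 ways of inducing quiescence. It was built from 8 of the 24 libraries of the series, chosen by their labels: 2 libraries of etomoxir-treated cells (ETO) with 2 of their water controls (H2O), and 2 libraries of cells with the MYC inhibitor (MYCi) with 2 of their DMSO controls (DMSO). For each gene the log2 fold change of MYCi over DMSO was subtracted from that of ETO over H2O, so that a positive difference means a gene stood higher after etomoxir, relative to its own control, than after the MYC inhibitor.

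The labels name the cells only as mouse embryonic stem cells, with no strain or line for these libraries. All of them grew in 2i/LIF medium, which holds PD0325901 and CHIR99021, inhibitors of MEK and GSK3, and the cytokine LIF. Etomoxir was given at 100 µM for 4 days from plating, and the MYC inhibitor at 64 µM for 3 days. The replicates are called biological, but their cultures are not described, and the error behind each p-value is only that between such libraries. The agent, the vehicle, the length of treatment and the table in which values were normalized all differ between the pairs and cannot be told apart in the difference. Levels were therefore compared only within a pair, and only the fold changes were set against each other.

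Etomoxir blocks carnitine palmitoyltransferase 1, the enzyme that passes long-chain fatty acids into mitochondria for oxidation. The MYC inhibitor keeps MYC from pairing with MAX, the partner it needs to bind DNA and drive genes for growth, nucleotide synthesis and ribosome production. Quiescent cells have left the division cycle but can return to it, and they usually make less RNA and protein than dividing cells.

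The treated libraries held an estimated 65.7 to 76.3 M counted fragments, with 30.5 to 34.8 M estimated over Ensembl genes. For the control libraries the estimates were 35.7 to 48.1 M and 34.8 to 40.2 M. In H2O replicate 2 the estimate over genes, 40.2 M, exceeded that of all counted fragments, 35.7 M, so these depths are rough. In the FPKM values as deposited, the median gene stood lower by 0.788 on the log2 scale in ETO than in H2O and by 0.748 in MYCi than in DMSO, a shift that nearly cancelled in the difference (0.04). Each library was therefore divided by its median-of-ratios factor, and all values below are such scaled FPKM, fragments adjusted for gene length and library size. A gene said to have risen after one treatment by less than its shift was thus not higher in the deposited values. Naive ESC markers were high in every library, with summed levels of the 8 genes of 423 to 444 in ETO, 736 to 807 in H2O, 531 to 538 in MYCi and 713 to 761 in DMSO. Summed levels of 12 fibroblast markers were 0.584 to 2.11 throughout, and *Dcn*, *Lum*, *Postn* and *Prrx1* were at or near 0.

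Differences were tested for 26492 genes with limma in one model of all 8 libraries, and p-values were adjusted over all of these genes. At an adjusted p under 0.05, 4600 genes differed in their response (17.4%), 2340 of them higher with etomoxir (8.83%) and 2260 lower (8.53%). The difference was at least 2-fold for 1439 of them, 980 higher and 459 lower. Etomoxir alone raised 8406 genes (31.7%) and lowered 8529 (32.2%), and the MYC inhibitor alone raised 6446 (24.3%) and lowered 7333 (27.7%). These shares over all genes are the background for the counts of list members below.

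Most of what the inhibitors changed, they changed in the same direction. The log2 fold changes of the pairs, which share no library, ran together across genes with Pearson's r of 0.76 and Spearman's rho of 0.783 over 26492 genes, which are not independent replicates. A further 8876 genes rose or fell with both inhibitors without a difference past the threshold. Fold changes spread more widely with etomoxir, with an SD across genes of 0.968, against 0.706 with the MYC inhibitor.

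Among the 4600 genes that differed, 2292 moved in the same direction with both and further with etomoxir, 1030 upward and 1262 downward. Only 187 moved in the same direction and further with the MYC inhibitor. Another 1433 passed with etomoxir and not with the MYC inhibitor, 424 passed with the MYC inhibitor and not with etomoxir, and 5 passed in neither comparison alone. Opposite movements were rare: 139 genes rose with etomoxir and fell with the MYC inhibitor, and 120 did the reverse. The agent, its dose and the longer treatment cannot be told apart in this wider spread.

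**Figure D1:**
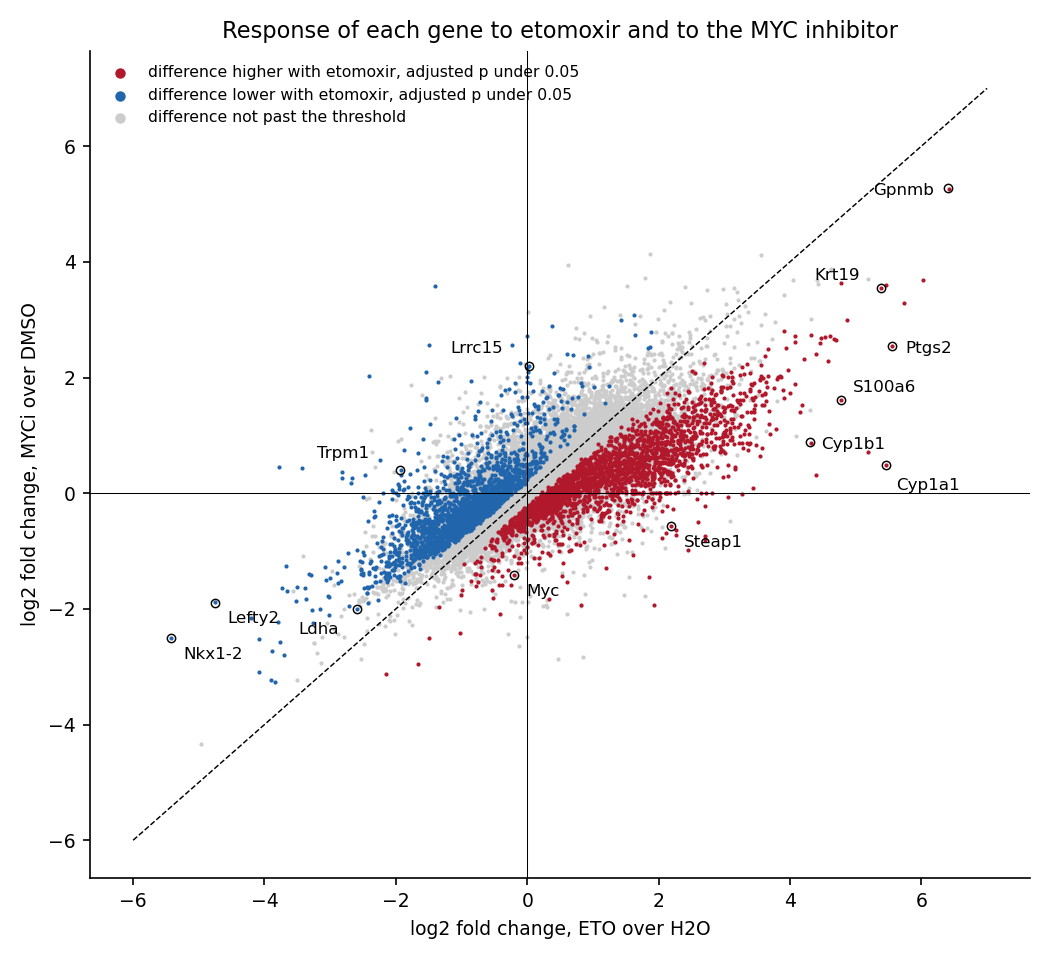
Each point is 1 of 26492 genes, with its log2 fold change of ETO over H2O on the x axis and of MYCi over DMSO on the y axis. The dashed line marks equal responses, red points (2340) differ upward with etomoxir and blue points (2260) downward, and *Cyp1a1* at 5.46 against 0.49 lies furthest to the lower right of the genes named.

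These counts depended on single libraries and on the scaling. Leaving out any 1 of the ETO, MYCi or DMSO libraries brought the count to between 1063 and 1354 higher and between 958 and 1373 lower. On the deposited scale, on which the H2O libraries differed from each other in overall level (log2 factors of 0.223 and 0.585), 252 genes were higher and 103 lower. The named genes were mostly picked for large differences in this same fit, so that their stability does not stand for that of all genes that differed. Of the 206 named genes past the threshold, 143 kept it whichever library was left out and none changed direction in any fit. Another 3, *Ptgir*, *Serpinb9c* and *Dhrs9*, kept it in 6 fits and were too low to be fitted without either ETO library.

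The aryl hydrocarbon receptor (AHR) program held the largest difference of the named genes, that of *Cyp1a1*. AHR is a ligand-activated transcription factor that switches on cytochrome P450 enzymes of the CYP1 family, which oxidise foreign and endogenous aromatic compounds. *Cyp1a1*, its classical target, stood at 17.3 and 18.3 in ETO, against 0.302 and 0.309 in H2O. In the other pair it stood at 1.16 and 1.25 in MYCi, against 0.723 and 0.946 in DMSO. The ETO libraries were thus far above their control, while the MYCi libraries lay just above theirs, and the difference was 4.97 (SE 0.18, adjusted p = 0.000522).

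*Cyp1b1*, a second CYP1 enzyme, followed the same pattern at a lower level. It measured 2.76 and 3.01 in ETO, against 0.0698 and 0.0324 in H2O, and 0.195 and 0.214 in MYCi, against 0.0586 and 0.0733 in DMSO. Neither treated group overlapped its control, and the difference was 3.44 (SE 0.25, adjusted p = 0.00141). *Tiparp*, which encodes a mono-ADP-ribosyltransferase that feeds back on AHR, was at 15.2 and 16 in ETO, against 8.31 and 8.98 in H2O, and moved the other way with the MYC inhibitor, at 7.57 and 7.47 in MYCi, against 9.18 and 9 in DMSO (difference 1.12, SE 0.07, adjusted p = 0.00107). Of 11 AHR genes tested, 8 rose and 2 fell with etomoxir, and 7 rose and 3 fell with the MYC inhibitor (medians 1.15 and 0.49). In the difference 5 were higher and 1 was lower, the lowest difference being -1.85. Their median difference was 0.90 against -0.01 for all genes. Without single libraries 3 to 4 were higher, 3 without ETO replicate 1.

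The promoters of *Cyp1a1* and *Cyp1b1* are shown because these CYP1 genes had the largest differences of the AHR list. The 250 bases before the RefSeq start (GRCm38.p6) are printed 5′ to 3′ on the gene's strand, with GCGTG, the core that AHR and its partner ARNT bind, in capitals where it or its reverse complement CACGC occurs. *Cyp1a1* lies on the plus strand at chr9:57697363-57697612 and *Cyp1b1* on the minus strand at chr17:79715062-79715311.
Cyp1a1: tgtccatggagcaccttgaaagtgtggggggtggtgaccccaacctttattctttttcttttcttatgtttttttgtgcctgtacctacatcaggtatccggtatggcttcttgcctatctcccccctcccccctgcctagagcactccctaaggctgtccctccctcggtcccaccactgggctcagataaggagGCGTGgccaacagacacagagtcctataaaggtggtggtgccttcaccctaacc
Cyp1b1: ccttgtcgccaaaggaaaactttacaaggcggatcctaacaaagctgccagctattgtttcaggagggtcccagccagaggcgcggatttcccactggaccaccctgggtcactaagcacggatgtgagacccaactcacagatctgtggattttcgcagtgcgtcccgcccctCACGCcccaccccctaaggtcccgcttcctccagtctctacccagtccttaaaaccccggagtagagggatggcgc
Each promoter held 1 match on either strand and none of the longer motif TNGCGTG. Of the other promoters searched, that of *Tiparp* held 1 core match, that of *Ahrr* 3 and 1 of the longer motif, and those of *Cyp1a2* and *Nqo1* held 0. The core occurred in 28.2% of 32851 such promoters and the longer motif in 4.1%, so that a match is a description of these letters and not a site.

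Among the other large positive differences were those of a pair of prostaglandin genes. *Ptgs2*, the inducible cyclooxygenase that makes prostaglandin precursors, was at 8.91 and 8.78 in ETO, against 0.0967 and 0.0827 in H2O, and at 0.8 and 0.721 in MYCi, against 0.0616 and 0.0355 in DMSO. It rose in both pairs and by 3.02 more with etomoxir (SE 0.20, adjusted p = 0.00107). *Ptgir*, the receptor for prostacyclin, was at 1.14 and 1.19 in ETO, against 0.0213 and 0.0114 in H2O, and did not pass with the MYC inhibitor, at 0.0162 and 0.0203 in MYCi, against 0.0242 and 0 in DMSO. It passed the filter through the ETO libraries alone, so that it had to differ and the size of its difference depends on the pseudocount.

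*S100a6*, a calcium-binding protein of proliferating and epithelial cells, was at 5.57 and 5.74 in ETO, against 0.143 and 0.0832 in H2O, and at 0.713 and 0.606 in MYCi, against 0.147 and 0.15 in DMSO. Its difference was 3.16 (SE 0.24, adjusted p = 0.00146). *Steap1*, a metalloreductase-family membrane protein, went in opposite directions. It was at 7.38 and 8.2 in ETO, against 1.74 and 1.53 in H2O, and at 0.977 and 1.31 in MYCi, against 1.78 and 1.68 in DMSO (difference 2.76, SE 0.20, adjusted p = 0.00141).

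*Serpinb9c*, a serine protease inhibitor, was at 0.981 and 1.26 in ETO, against 0.00886 and 0 in H2O, and at 0.0812 and 0.0746 in MYCi, against 0 and 0.03 in DMSO. *Dhrs9*, a short-chain dehydrogenase that acts on retinol and steroids, was at 0.983 and 1.26 in ETO, against 0.00414 and 0 in H2O. In the other pair it was at 0.0801 and 0.0631 in MYCi, against 0 in each DMSO library. Both passed the filter through the ETO libraries alone, so that they had to differ. Both were also listed at 0 in at least 1 control library, so that the size of their fold changes depends on the pseudocount.

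Short hairpin loci of microRNA genes also stood among the largest differences, and their values are fragments of longer RNA over the hairpin, not mature microRNA. *Mir200a* was at 4.54 and 2.75 in ETO, listed at 0 in both H2O libraries, at 0.201 and 0.188 in MYCi, and at 0.224 and 0 in DMSO. With the rough depths given above, this came to an estimated 21 and 14 fragments in ETO, against 0 in each H2O library, and 1 fragment in each MYCi library. *Mir200b*, its neighbour on chromosome 4, was at 3.89 and 4.79 in ETO and at 1.29 and 0.965 in MYCi, and was listed at 0 in all 4 control libraries. These hairpins thus held more fragments in the ETO libraries than in their H2O controls, and *Mir200b* held fragments in both treated groups and in no control. The family's other cluster did not follow: *Mir200c* had an estimated 0 and 4 fragments in ETO, against 1 in each H2O library, and 5 and 1 in MYCi, against 2 in each DMSO library, and *Mir141* had at most 1 in any library.

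MicroRNAs of this family silence ZEB factors and so hold cells in an epithelial form. The mature 3p strands of the chromosome 4 loci and of *Mir22* are printed from RefSeq with the seed (bases 2 to 8) in capitals, to show which of them share one.
mmu-miR-200a-3p: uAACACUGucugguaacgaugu
mmu-miR-200b-3p: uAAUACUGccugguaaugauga
mmu-miR-429-3p: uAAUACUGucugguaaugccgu
mmu-miR-22-3p: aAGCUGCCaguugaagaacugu
miR-200b and miR-429 share a seed, which differs from that of miR-200a. *Mir22* was at 3.07 and 2.42 in ETO, against 0.233 and 0.199 in H2O, and at 0.285 and 0.267 in MYCi, against 0.318 and 0.0902 in DMSO (difference 2.75, adjusted p = 0.0153). The call for *Mir22* was lost without 4 of the 8 libraries, with adjusted p of up to 0.0557 without MYCi replicate 2. *Mir3072* (difference 3.27) and *Mir5620* (difference 2.79) were lost as well, with adjusted p of up to 0.0881 and 0.118 without MYCi replicate 2 and DMSO replicate 1.

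The largest negative differences included *Nkx1-2* and the *Lefty* genes. *Nkx1-2*, a homeobox gene of the early posterior epiblast, was at 0.0893 and 0.0487 in ETO, against 6.58 and 7.6 in H2O, and at 1.42 and 1.38 in MYCi, against 8.68 and 8.21 in DMSO. It fell with both inhibitors, by 5.42 with etomoxir and by 2.51 with the MYC inhibitor on the log2 scale, a difference of -2.91 (SE 0.19, adjusted p = 0.00107). *Lefty2*, a secreted inhibitor of Nodal that Nodal itself induces, was at 0.0223 and 0.0541 in ETO, against 3.37 and 3.84 in H2O, and at 0.995 and 1 in MYCi, against 4.21 and 3.73 in DMSO (difference -2.86, SE 0.20, adjusted p = 0.00133). *Lefty1*, its neighbour, was listed at 0 and at 0.01 in ETO, against 1.23 and 1.36 in H2O, and stood at 0.472 and 0.745 in MYCi, against 2.44 and 1.73 in DMSO (difference -2.10, adjusted p = 0.0108).

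The other genes of this end moved in several ways. *Trpm1*, a cation channel, was at 0.939 and 0.988 in ETO, against 3.79 and 4.11 in H2O, and rose in the other pair, at 2.99 and 2.88 in MYCi, against 2.31 and 2.11 in DMSO (difference -2.33, SE 0.11, adjusted p = 0.000738). *Lrrc15*, a leucine-rich repeat membrane protein, did not pass with etomoxir, at 0.841 and 0.796 in ETO, against 0.753 and 0.85 in H2O, but rose to 3.32 and 3.28 in MYCi, against 0.685 and 0.593 in DMSO (difference -2.17, SE 0.15, adjusted p = 0.00133). *Aldh1b1*, a mitochondrial aldehyde dehydrogenase, fell in both pairs, by 4.20 with etomoxir and by 2.15 with the MYC inhibitor (difference -2.05, adjusted p = 0.00513). *Rcn3*, a calcium-binding protein of the endoplasmic reticulum, and *Ripply1*, a repressor of T-box factors, had differences of -2.41 and -2.08. *Iglj3* (-3.17), *Mir1968* (-2.09), *n-R5s192* (-2.08) and *Rprl3* (-2.08) are short segment or small RNA genes, and all but *n-R5s192* lost the call without at least 1 library, *Rprl3* without 7 of 8.

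**Figure D2:**
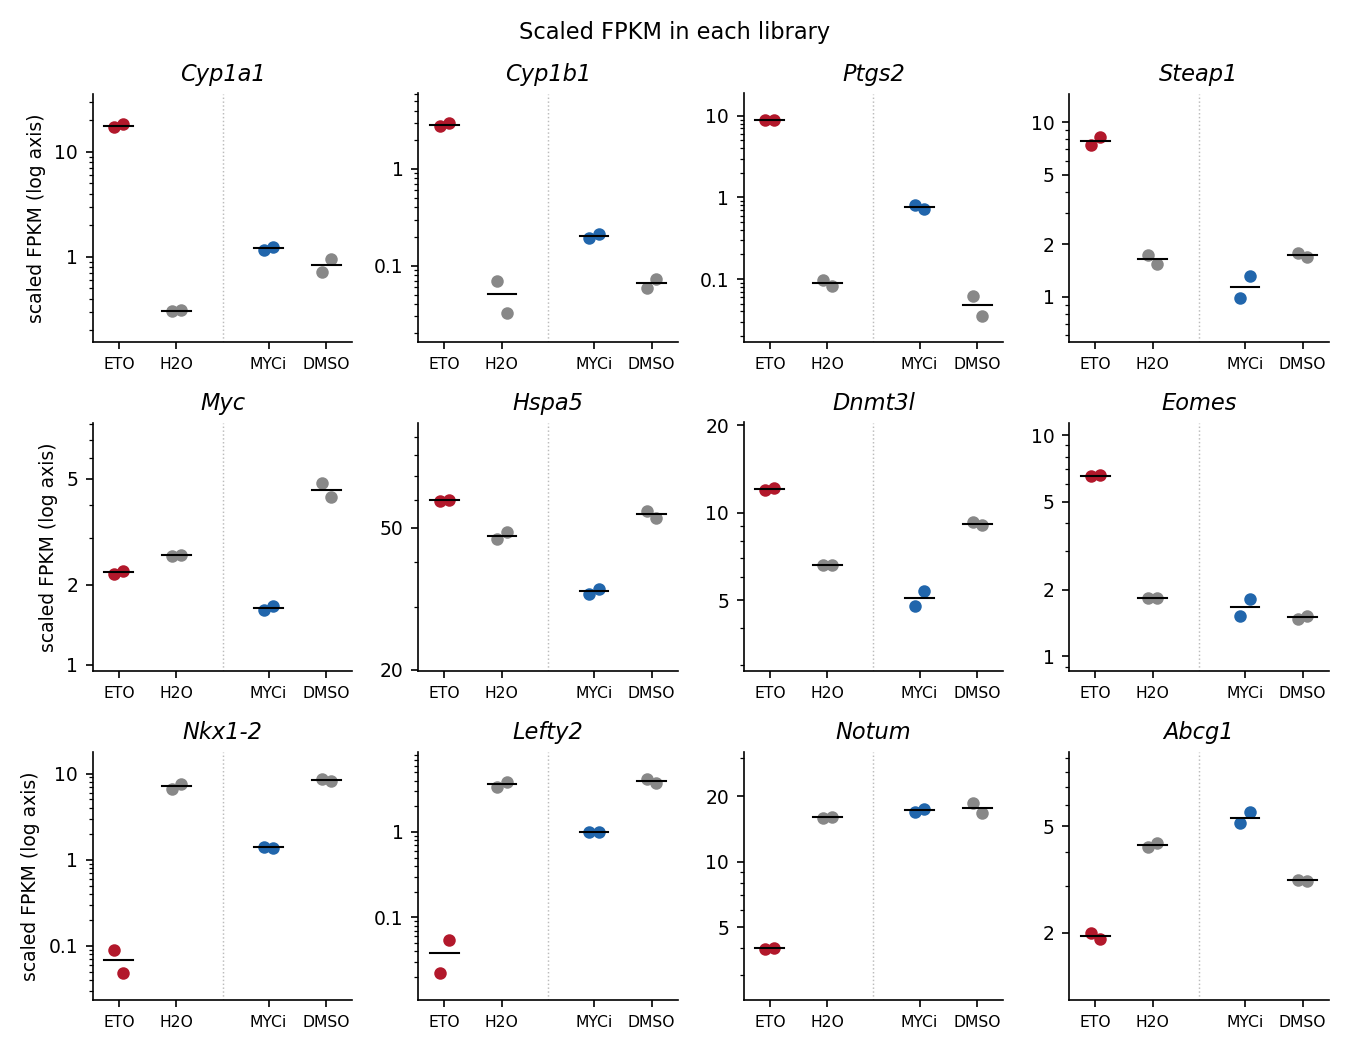
Scaled FPKM of 12 genes on a log axis, with 1 point per library and a bar at the mean of each group, ETO beside H2O and MYCi beside DMSO. *Cyp1a1* stands at 17.3 and 18.3 in ETO and at 1.16 and 1.25 in MYCi, and *Lefty2* at 0.0223 and 0.0541 in ETO and at 0.995 and 1 in MYCi.

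The genes nearest to the drug targets did not follow a single rule. *Myc* fell with the MYC inhibitor, to 1.6 and 1.67 in MYCi, against 4.81 and 4.26 in DMSO, and did not pass with etomoxir, at 2.19 and 2.26 in ETO, against 2.57 and 2.59 in H2O (difference 1.21, SE 0.11, adjusted p = 0.00235). *Mycl*, a paralogue of *Myc*, fell further with etomoxir, to 1.84 and 1.72 in ETO, against 5.64 and 5.31 in H2O, and was at 3.53 and 3.76 in MYCi, against 5.54 and 5.3 in DMSO (difference -1.01, SE 0.09, adjusted p = 0.00256). *Mycn*, the third paralogue, was at 14.1 and 14.3 in ETO, against 20.1 in each H2O library, and at 28.9 and 29.8 in MYCi, against 35.5 and 31.3 in DMSO, and the difference of -0.31 did not pass (SE 0.09, adjusted p = 0.0596). *Mxd1* and *Mxd4*, which compete with MYC for MAX, had differences of 0.84 and 0.81, the call for *Mxd4* being lost without any 1 of the 8 libraries (adjusted p of up to 0.126). Of 12 genes of the MYC, MAX and MXD network, 3 were higher and 2 lower.

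*Cpt1a*, the liver-type carnitine palmitoyltransferase 1, was at 22.7 and 22.2 in ETO, against 18.2 and 21.4 in H2O, and at 18.6 and 19.1 in MYCi, against 14.7 and 14.4 in DMSO. Its difference was -0.18 and did not pass (SE 0.10, adjusted p = 0.273). *Cpt2*, the inner membrane enzyme of the same shuttle, was at 9.01 and 8.49 in ETO, against 6.74 and 7.03 in H2O, and at 4.88 and 5.07 in MYCi, against 5.3 and 5.51 in DMSO (difference 0.46, SE 0.07, adjusted p = 0.011). Among 30 genes of fatty acid oxidation, 8 were higher and 4 lower (3 and 2 with the replicate number as a block), with a median difference of 0.08. The higher ones were led by *Acot2*, a mitochondrial acyl-CoA thioesterase, at 14.5 and 16.4 in ETO, against 0.784 and 1.01 in H2O, and 3.21 and 3.56 in MYCi, against 0.707 and 0.686 in DMSO (difference 1.84, SE 0.18, adjusted p = 0.00278). *Acot1*, a near-identical cytosolic copy with which fragments may be shared, had a difference of 0.97, lost without 7 of the 8 libraries. The lower ones included *Ehhadh*, a peroxisomal oxidation enzyme, at -0.63.

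Genes that PPAR factors switch on when fatty acids accumulate, together with lipid droplet genes, had 6 of 17 members higher and 1 lower, with a median difference of 0.35, though 3 were higher without ETO replicate 1 and 2 with the replicate number as a block. *Plin2*, the coat protein of lipid droplets, was at 65.8 and 63.8 in ETO, against 13.6 and 15.8 in H2O, and at 25.4 and 26.2 in MYCi, against 10.2 and 10.4 in DMSO. It rose with both inhibitors and by 0.82 more with etomoxir (SE 0.10, adjusted p = 0.00507). *Pdk4*, the kinase that shuts pyruvate out of the mitochondrial cycle, rose by 1.49 with etomoxir and by 0.73 with the MYC inhibitor (difference 0.76, adjusted p = 0.0106). *Dgat2*, the last enzyme of triglyceride synthesis, rose with etomoxir and not with the MYC inhibitor (difference 1.41), a call lost without 6 of the 8 libraries.

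The cell division genes fell with both inhibitors and further with etomoxir. All 39 genes of G2 and mitosis passed downward in each pair, with median log2 fold changes of -1.19 with etomoxir and -0.72 with the MYC inhibitor. On the deposited scale none passed in the difference, while in the main fit 28 of the 39 had a lower difference, none a higher one. Without single libraries this count was 23 to 28, and with the replicate number as a block 19. *Ccnb2*, a mitotic cyclin, was at 13.3 in each ETO library, against 54.3 and 62.5 in H2O, and at 21.5 and 23.2 in MYCi, against 54.6 and 52.2 in DMSO (difference -0.87, SE 0.11, adjusted p = 0.00475). *Cenpf*, a centromere protein, was at 5.51 and 5.39 in ETO, against 13.3 and 12.8 in H2O, and at 10.2 and 10.3 in MYCi, against 13.3 and 13.6 in DMSO (difference -0.86, SE 0.06, adjusted p = 0.00107). *Cdc25b*, a phosphatase that starts mitosis, and *Cenpa*, the centromeric histone, had differences of -1.12 and -0.88. In bulk RNA, fewer cells in a phase and less RNA per cell cannot be told apart.

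By their medians, genes of earlier phases also fell with both inhibitors and further with etomoxir. The median difference was -0.35 for G1 genes and for DNA replication genes and -0.45 for replication-dependent histones, against -0.55 for G2 and mitosis. The falls themselves were not all smaller. Medians were -1.11 with etomoxir and -0.76 with the MYC inhibitor for DNA replication, and -1.75 and -1.28 for the histones. Among 12 G1 cyclins, kinases and their regulators, 7 were lower and none higher (4 lower without DMSO replicate 2), with medians of -0.99 with etomoxir and -0.82 with the MYC inhibitor. *Ccnd1*, the D-type cyclin that carries growth signals into the cycle, was at 7.13 and 6.78 in ETO, against 28.3 and 29.4 in H2O, and at 17.9 and 18.6 in MYCi, against 35.4 and 33.3 in DMSO (difference -1.12, SE 0.07, adjusted p = 0.00107). *Cdk6*, its kinase, and *E2f1*, the factor that starts S phase, had differences of -0.68 and -0.46. Of 38 DNA replication genes 20 were lower and 1 higher, a count of 11 without ETO replicate 2. They included *Prim1*, the primase subunit (-0.78), *Mcm3*, part of the replicative helicase (-0.69), and *Uhrf1*, which carries DNA methylation through replication (-0.69). Of 70 replication-dependent histone genes 17 were lower and 1 higher, but only 2 were lower without DMSO replicate 2, and these near-identical genes share fragments.

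The inhibitors of cyclin-dependent kinases differed among themselves. *Cdkn1a*, which encodes p21, was at 39.7 and 35.9 in ETO, against 32.7 and 34.2 in H2O, and at 28.3 and 29.7 in MYCi, against 28.6 and 27.9 in DMSO (difference 0.13, SE 0.08, adjusted p = 0.326). *Cdkn1b*, which encodes p27, was at 11.5 and 10.6 in ETO, against 8.94 and 10.1 in H2O, and at 7.91 and 8.42 in MYCi, against 8.47 and 7.01 in DMSO (difference 0.14, SE 0.15, adjusted p = 0.582). *Cdkn2b*, an inhibitor of D-type cyclin kinases, rose by 1.87 with etomoxir and by 0.87 with the MYC inhibitor, and its difference passed (SE 0.14, adjusted p = 0.00673). *Rb1*, the retinoblastoma protein that holds E2F in check, rose with both, to 5.89 and 5.75 in ETO, against 1.28 and 1.42 in H2O, and to 3.2 and 3.22 in MYCi, against 1.28 and 1.4 in DMSO (difference 0.83, SE 0.11, adjusted p = 0.00572). *Rbl1*, a relative of *Rb1*, had a difference of -0.71. Of the 10 genes in the list 2 were higher and 1 lower.

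Of 31 genes of glycolysis and pyruvate entry, 24 fell with each inhibitor, while 4 rose with etomoxir and 2 with the MYC inhibitor. In the difference 18 were lower and 3 higher, with medians of -1.18 with etomoxir and -0.57 with the MYC inhibitor. With the replicate number as a block 12 were lower and none higher, and on the deposited scale 1 was lower and none higher. *Pfkp*, the platelet-type phosphofructokinase, was at 5.16 and 5.24 in ETO, against 14.2 and 13.4 in H2O, and at 8.09 and 7.43 in MYCi, against 10.7 and 11.4 in DMSO (difference -0.89, SE 0.09, adjusted p = 0.00305). *Slc16a3*, a lactate exporter, was at 0.592 and 0.687 in ETO, against 4.02 and 4.24 in H2O, and at 1.01 and 0.905 in MYCi, against 2.26 and 2.38 in DMSO (difference -1.32, SE 0.14, adjusted p = 0.00357). *Ldhb*, a subunit of lactate dehydrogenase, fell by 1.25 with etomoxir and did not pass with the MYC inhibitor, at -0.26 (difference -0.99, adjusted p = 0.00596). *Ldha*, the other subunit and a known MYC target, fell with both, by 2.59 with etomoxir (difference -0.59, adjusted p = 0.0066). The 3 higher genes, *Pdk4*, *Pfkfb3* and *Mpc1*, act at control points of the pathway, and *Pfkfb3* and *Mpc1* were picked after their values were seen.

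In the other biosynthetic lists the order was alike but fewer members passed. Nucleotide synthesis had 12 lower and 1 higher of 21, a count of 3 lower without ETO replicate 2. Its member *Pfas*, an enzyme of purine synthesis, was at 11.1 and 10.7 in ETO, against 33.3 and 34.4 in H2O, and at 19.5 in each MYCi library, against 33.6 and 33 in DMSO (difference -0.86, SE 0.06, adjusted p = 0.00107). The nuclear genes of the respiratory chain had 14 lower and none higher of 72, with medians of -0.76 and -0.45, and 4 lower without MYCi replicate 2. *Uqcrh*, a hinge subunit of complex III, was at 6.83 and 5.76 in ETO, against 19.2 and 19.8 in H2O, and at 12.1 and 13.5 in MYCi, against 19.4 and 18.9 in DMSO (difference -1.05, SE 0.12, adjusted p = 0.00457). The mitochondrial cycle and glutamine genes had 7 lower and none higher of 27, and 1 lower without ETO replicate 2, *Got2*, a mitochondrial transaminase, being at -0.52.

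Ribosome production is a classical output of MYC. Of 39 ribosome biogenesis genes, which fell with medians of -0.76 with etomoxir and -0.57 with the MYC inhibitor, 6 were lower in the difference and 1 higher, shares of 15.4% and 2.56%. Without DMSO replicate 2 none was lower. Of 25 other MYC targets 8 were lower and none higher, a count of 1 lower without ETO replicate 2. *Nop2*, a methyltransferase of ribosomal RNA, was at 34.8 and 35.4 in ETO, against 65.2 and 64.5 in H2O, and at 45.3 and 46.9 in MYCi, against 70.6 and 68.2 in DMSO. Its difference of -0.30 (SE 0.06, adjusted p = 0.0201) was lost without 5 of the 8 libraries. Of 76 cytosolic ribosomal protein genes 10 were lower (13.2%, against 8.53% of all genes) and 1 higher. With the replicate number as a block 1 was lower and none higher.

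One-carbon metabolism supplies the methyl groups of S-adenosylmethionine, which histone and DNA methyltransferases use. Of 32 genes of one-carbon, serine and methionine metabolism, 9 were lower and 2 higher, with 6 lower and none higher without ETO replicate 1. *Mat2a*, the enzyme that makes S-adenosylmethionine, fell with both inhibitors, to 24.5 and 24.3 in ETO, against 32.6 and 33.7 in H2O, and to 30.2 and 29.1 in MYCi, against 43.6 and 42.7 in DMSO (difference 0.10, SE 0.06, adjusted p = 0.292). *Ahcy*, which removes the product of methylation, fell further with etomoxir, to 5.5 and 5.69 in ETO, against 16.3 and 17.9 in H2O, and was at 9.7 and 10.8 in MYCi, against 16.1 and 15.8 in DMSO (difference -0.96, SE 0.10, adjusted p = 0.00314). *Tdh*, the threonine dehydrogenase on which mouse ESCs draw for one-carbon units, had the same difference of -0.96 (SE 0.08, adjusted p = 0.00229), and *Shmt1*, the cytosolic serine hydroxymethyltransferase, one of -0.66.

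Polycomb repressive complex 2, which trimethylates lysine 27 of histone H3, had 2 of 14 members higher and 2 lower. These shares of 14.3% each stand against 8.83% and 8.53% of all genes, and with the replicate number as a block none passed. *Ezh2*, its catalytic subunit, was at 10.5 and 10.2 in ETO, against 16.1 and 17.3 in H2O, and at 11 and 11.2 in MYCi, against 16.1 and 15.5 in DMSO (difference -0.19, SE 0.07, adjusted p = 0.115). *Eed*, which reads the mark, had a difference of -0.24 (adjusted p = 0.0706), and *Suz12*, the scaffold, one of -0.47 (adjusted p = 0.012, and 0.0537 without DMSO replicate 2). *Kdm6b*, a demethylase of the same mark, was at 20.7 and 19.4 in ETO, against 12 and 12.8 in H2O, and at 12.6 and 13 in MYCi, against 11.5 in each DMSO library (difference 0.54, SE 0.07, adjusted p = 0.00652).

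DNA methylation genes moved both ways, 2 of 9 higher and 3 lower. *Dnmt3l*, the cofactor of new methylation, went in opposite directions, at 12 and 12.2 in ETO, against 6.6 and 6.59 in H2O, and at 4.78 and 5.37 in MYCi, against 9.29 and 9.08 in DMSO (difference 1.71, SE 0.08, adjusted p = 0.000738). *Dnmt3a*, an enzyme of new methylation, did so too, at 2.68 and 2.82 in ETO, against 1.8 and 2.01 in H2O, and at 1.35 and 1.36 in MYCi, against 1.81 and 2.05 in DMSO (difference 0.99, SE 0.13, adjusted p = 0.00582). *Uhrf1*, needed to maintain methylation, fell further with etomoxir as given above, and *Tet1*, which oxidises methylcytosine, fell with etomoxir only (difference -0.57, SE 0.05, adjusted p = 0.00286).

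**Figure D3:**
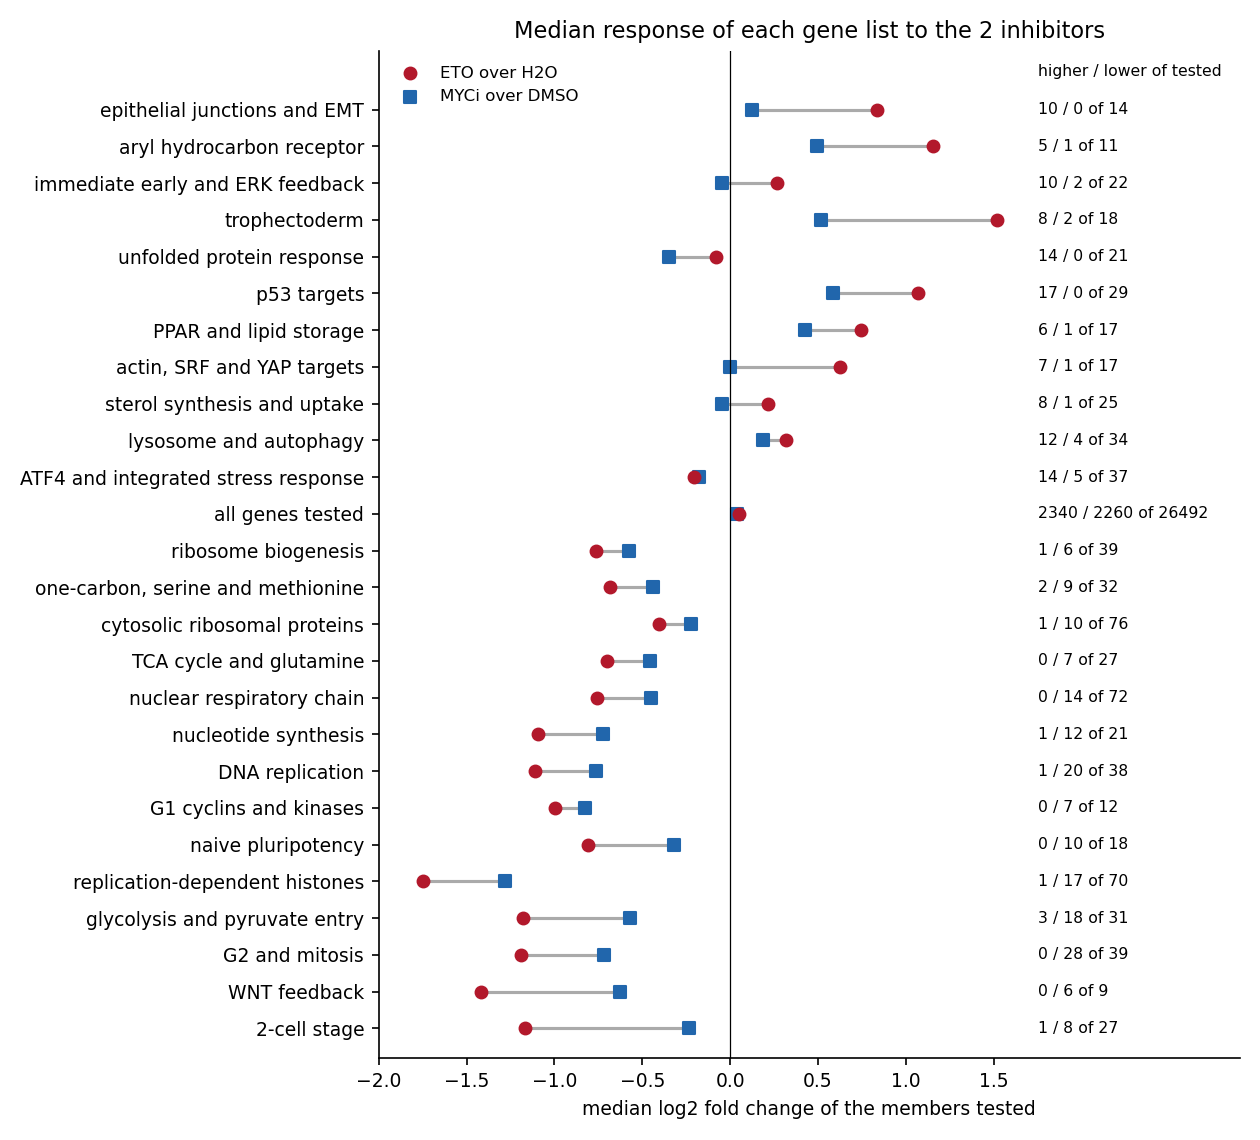
Median log2 fold change of the members of 25 of the 50 gene lists, picked by hand, and of all genes, for ETO over H2O (red circles) and MYCi over DMSO (blue squares), ordered by the median difference. Lists not shown include polycomb, germline, imprinted and primitive endoderm genes, which had members past the threshold in both directions. The columns at the right count members higher and lower in the difference, from 10 and 0 of 14 genes of epithelial junctions and EMT at the top to 1 and 8 of 27 genes of the 2-cell stage at the bottom.

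The unfolded protein response raises chaperones and degradation factors when proteins misfold in the endoplasmic reticulum. Of 21 of its genes 14 were higher and none lower, with medians of -0.08 with etomoxir and -0.35 with the MYC inhibitor. With the replicate number as a block 8 were higher, and on the deposited scale none was. Without single libraries 10 to 13 were higher. *Hspa5*, the main chaperone, was at 59.5 and 59.8 in ETO, against 46.4 and 48.6 in H2O, and at 32.7 and 33.7 in MYCi, against 55.8 and 53.4 in DMSO (difference 1.05, SE 0.06, adjusted p = 0.00107). *Xbp1*, a transcription factor of the response, rose with etomoxir and fell with the MYC inhibitor as well (difference 0.79, SE 0.10, adjusted p = 0.00565). *Dnajb9*, a co-chaperone, was at 12.8 and 13.3 in ETO, against 6.08 and 6.4 in H2O, and at 6.82 and 7.32 in MYCi, against 6.38 and 6.37 in DMSO (difference 0.91, SE 0.07, adjusted p = 0.00185). The rises of *Hspa5* and *Xbp1* with etomoxir, 0.33 and 0.45, were below the overall shift of 0.788.

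The integrated stress response, in which ATF4 raises amino acid and redox genes, was divided. With etomoxir 13 of its 37 genes rose and 18 fell, and with the MYC inhibitor 11 rose and 17 fell. The medians were -0.20 and -0.18. Of 37 of its genes 14 were higher and 5 lower, with 8 higher without ETO replicate 2 and 2 lower without ETO replicate 1. *Slc7a11*, the cystine importer, was at 6.02 and 6.24 in ETO, against 0.419 and 0.626 in H2O, and at 1.65 and 1.83 in MYCi, against 0.581 and 0.607 in DMSO (difference 1.94, SE 0.23, adjusted p = 0.00432). *Ppp1r15a*, which restarts translation, was at 26 and 28.3 in ETO, against 9.45 and 10.4 in H2O, and did not pass with the MYC inhibitor, at 9.88 and 10.7 in MYCi, against 9.58 and 9.57 in DMSO (difference 1.34, SE 0.10, adjusted p = 0.00146). *Atf3*, an early factor of the response, rose by 4.08 with etomoxir and by 2.72 with the MYC inhibitor (difference 1.36, adjusted p = 0.0144, and 0.0527 without ETO replicate 2). The 5 lower genes, picked after their values were seen, were *Psat1*, *Slc7a5*, *Asns*, *Pck2* and *Aldh18a1*, which make or import amino acids or feed their synthesis.

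Of 29 p53 targets 24 rose and 4 fell with etomoxir, and 20 rose and 5 fell with the MYC inhibitor. Over all genes 31.7% rose with etomoxir and 24.3% with the MYC inhibitor. In the difference 17 were higher and none lower, with medians of 1.07 with etomoxir and 0.59 with the MYC inhibitor, and 13 to 16 were higher without single libraries. *Perp*, a membrane protein of junctions and cell death, was at 17.2 and 16.5 in ETO, against 1.42 and 1.49 in H2O, and at 4.41 and 5.02 in MYCi, against 1.76 and 1.53 in DMSO (difference 1.98, SE 0.13, adjusted p = 0.00107). *Plk2*, a polo-like kinase that slows the cycle, was at 48 and 46.2 in ETO, against 4.51 and 4.25 in H2O, and at 21.7 and 21.3 in MYCi, against 6.44 and 6.13 in DMSO (difference 1.64, SE 0.07, adjusted p = 0.000522). *Pmaip1* and *Bbc3*, which encode the cell death proteins NOXA and PUMA, had differences of 2.53 (SE 0.27) and 1.31 (SE 0.13). *Cdkn1a*, also a p53 target, was not among the 17. In the BCL2 family, *Bcl2l1*, a survival gene, rose by 0.35 with etomoxir and fell by 0.20 with the MYC inhibitor (difference 0.55, adjusted p = 0.00609).

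In the difference, genes of sterol synthesis and uptake passed mostly upward, and the sterol export genes that passed did so downward. Of 25 genes of sterol synthesis and uptake 8 were higher and 1 lower. With the replicate number as a block none was higher and 1 lower. *Hmgcs1*, an early enzyme of the pathway, had a difference of 0.27 that did not pass (adjusted p = 0.0894), although it rose with etomoxir alone by 0.42.

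LXR, the receptor for oxidised sterols, drives cholesterol export, and of 7 of its targets 3 were lower and none higher, and all 3 passed whichever library was left out. *Abcg1*, an exporter, fell with etomoxir and rose with the MYC inhibitor, at 2 and 1.89 in ETO, against 4.19 and 4.35 in H2O, and at 5.14 and 5.64 in MYCi, against 3.16 and 3.13 in DMSO (difference -1.85, SE 0.09, adjusted p = 0.000738). *Abca1*, a related exporter, rose with both inhibitors, by 0.18 with etomoxir and by 0.85 with the MYC inhibitor. It was at 11.5 and 11 in ETO, against 9.56 and 10.2 in H2O, and at 20.2 and 21 in MYCi, against 11.4 and 11.5 in DMSO (difference -0.66, SE 0.07, adjusted p = 0.00357). *Apoe*, which carries the exported lipid, had a difference of -0.98 (SE 0.10, adjusted p = 0.00357).

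Of 34 lysosome and autophagy genes 12 were higher (35.3%) and 4 lower (11.8%), against 8.83% and 8.53% of all genes. With the replicate number as a block the counts were 5 and 1. *Gpnmb*, a glycoprotein that rises when lysosomes are loaded, had the largest rise with etomoxir of the named genes and also rose with the MYC inhibitor, at 52.8 and 51.5 in ETO, against 0.594 and 0.441 in H2O, and at 13.7 and 13.9 in MYCi, against 0.261 and 0.26 in DMSO (difference 1.15, SE 0.16, adjusted p = 0.00688). *Ctsd*, a lysosomal protease, rose by 1.42 and by 0.79 (difference 0.63, adjusted p = 0.00547). The 20 hypoxia targets were divided: 9 rose and 8 fell with etomoxir, and 6 rose and 8 fell with the MYC inhibitor. Their medians were -0.04 and -0.05. In the difference 6 were higher and 1 lower, and 4 and 1 with the replicate number as a block. The higher ones included *Ndrg1*, a stress-induced gene (1.47, SE 0.06), and *Vegfa*, the vascular growth factor (0.83, SE 0.12).

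Most naive pluripotency genes fell, 14 of 18 with etomoxir and 12 with the MYC inhibitor, while 1 and 2 rose. Of these 18 naive pluripotency genes 10 were lower and none higher, with medians of -0.81 with etomoxir and -0.32 with the MYC inhibitor, and 6 were lower without ETO replicate 1. *Gbx2*, a homeobox gene downstream of LIF, was at 1.19 and 0.952 in ETO, against 13.7 and 15.3 in H2O, and at 4.61 and 4.9 in MYCi, against 16.1 and 15.1 in DMSO (difference -1.96, SE 0.15, adjusted p = 0.00149). *Klf4*, a naive factor, was at 32.3 and 32.1 in ETO, against 54.5 and 59.9 in H2O, and at 42.1 and 44.3 in MYCi, against 53.5 and 49.3 in DMSO (difference -0.58, SE 0.09, adjusted p = 0.0103). *Tcl1*, an AKT coactivator, and *Fgf4*, the growth factor that ESCs secrete, fell with etomoxir and did not pass with the MYC inhibitor (differences -1.56 and -0.86).

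*Pou5f1*, which encodes OCT4, was at 75 and 69.8 in ETO, against 125 and 134 in H2O, and at 84.6 and 81.9 in MYCi, against 135 and 124 in DMSO (difference -0.20, SE 0.10, adjusted p = 0.201). *Nanog* was at 80 and 76.6 in ETO, against 170 and 188 in H2O, and at 95.7 and 98.4 in MYCi, against 174 and 164 in DMSO. Its difference of -0.39 (adjusted p = 0.04) and that of *Sox2*, -0.44 (adjusted p = 0.0432), were each lost without 7 of the 8 libraries, with adjusted p of up to 0.136 and 0.133 without ETO replicate 2. In the list of core and formative pluripotency 4 of 15 were higher and 3 lower, the lower ones led by *Lin28a*, an RNA-binding repressor of let-7 (-1.33, SE 0.14, adjusted p = 0.00335).

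*Dppa3*, a maternal factor that protects methylation in the early embryo, rose with both inhibitors and further with the MYC inhibitor. It was at 6.16 and 4.78 in ETO, against 3.56 and 3.87 in H2O, and at 8.31 and 9.19 in MYCi, against 2.61 and 2.29 in DMSO (difference -1.26, SE 0.18, adjusted p = 0.00823).

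WNT feedback genes, which the GSK3 inhibitor in the medium keeps active, were lower: 6 of 9, with none higher, and 4 without ETO replicate 1. *Notum*, which inactivates WNT ligands, was at 3.98 and 4.02 in ETO, against 15.9 and 16.1 in H2O, and did not pass with the MYC inhibitor, at 17 and 17.4 in MYCi, against 18.6 and 16.7 in DMSO (difference -1.94, SE 0.08, adjusted p = 0.000522). *Axin2*, a brake on beta-catenin, was at 7.64 and 6.69 in ETO, against 21.8 and 22.5 in H2O, and at 13.1 and 13.5 in MYCi, against 21.8 and 20.4 in DMSO (difference -0.96, SE 0.10, adjusted p = 0.00333). *Lef1* and *Sp5*, a partner and a target of beta-catenin, had differences of -1.04 and -0.79.

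In the list of early response genes, 10 of 22 immediate early genes and feedback genes of ERK signalling were higher and 2 lower, with a median difference of 0.73. *Fos*, a subunit of AP-1, was at 2.73 and 2.58 in ETO, against 0.241 and 0.161 in H2O, and at 0.614 and 0.88 in MYCi, against 0.343 and 0.222 in DMSO (difference 2.06, SE 0.34, adjusted p = 0.0112). *Fosl2*, another AP-1 subunit, rose in both pairs (difference 1.82, SE 0.19, adjusted p = 0.00357), and *Fosl1* with etomoxir only (difference 1.92, SE 0.24, adjusted p = 0.00536). *Dusp5*, an ERK phosphatase that ERK induces, was at 7.39 and 8.14 in ETO, against 0.594 and 0.632 in H2O, and at 1.58 and 2.39 in MYCi, against 0.65 and 0.451 in DMSO (difference 1.79, adjusted p = 0.0129). With the replicate number as a block the count of higher genes was 5.

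Genes of actin and YAP signalling followed, with 7 of 17 higher and 1 lower, and 4 higher without ETO replicate 1. *Ccn1*, a matrix protein that YAP induces, rose with etomoxir and fell with the MYC inhibitor, at 21.9 and 20.3 in ETO, against 6.17 and 5.96 in H2O, and at 6.41 and 6.79 in MYCi, against 8.61 and 7.64 in DMSO (difference 2.08, SE 0.10, adjusted p = 0.000738). *Ccn2*, its relative, behaved alike, at 6.58 and 6.4 in ETO, against 2.39 and 2.5 in H2O, and at 2 and 2.07 in MYCi, against 3.1 and 2.91 in DMSO (difference 1.92, SE 0.09, adjusted p = 0.000672). *Thbs1*, a thrombospondin, rose in both pairs (difference 2.74, SE 0.24, adjusted p = 0.00229).

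**Figure D4:**
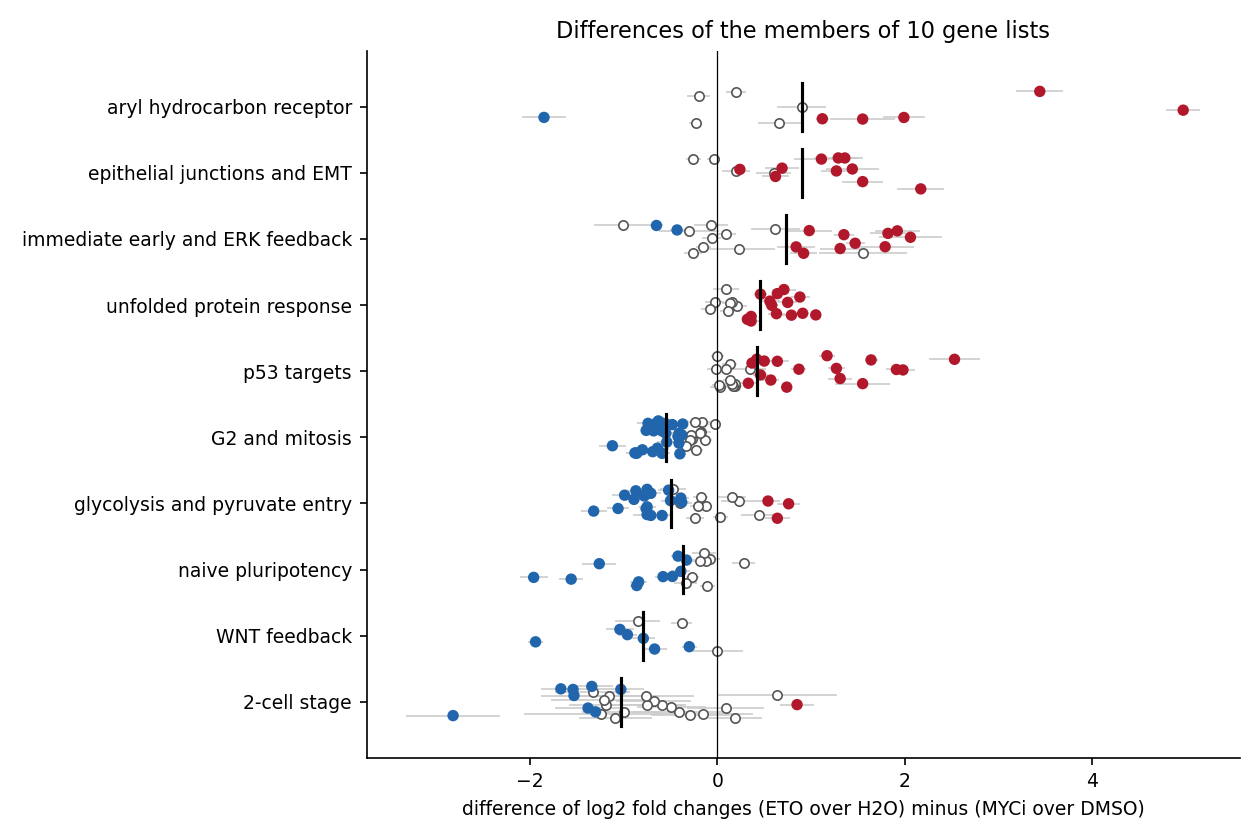
Difference of log2 fold changes, with its SE, for each tested member of 10 of the 50 gene lists, picked by hand. Filled points pass at an adjusted p under 0.05 (red higher with etomoxir, blue lower), open points do not, and black bars mark medians, from 0.90 for the AHR and epithelial lists to -1.03 for the 2-cell stage.

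Of 14 genes of epithelial junctions and of the epithelial-mesenchymal transition 10 were higher and none lower, with medians of 0.83 with etomoxir and 0.12 with the MYC inhibitor, though 4 to 6 were without single libraries, 4 without ETO replicate 2. *Grhl2*, a master regulator of epithelial junctions, was at 2.84 and 2.86 in ETO, against 0.606 and 0.562 in H2O, and at 0.653 and 0.667 in MYCi, against 0.349 and 0.357 in DMSO (difference 1.36, SE 0.14, adjusted p = 0.00352). *Esrp1*, a splicing factor of epithelial cells, was at 1.54 and 1.5 in ETO, against 0.0375 and 0.0581 in H2O, and at 0.341 and 0.353 in MYCi, against 0.0634 and 0.105 in DMSO (difference 2.17, SE 0.25, adjusted p = 0.00405). *Cldn7*, a tight junction claudin, had a difference of 1.55 (adjusted p = 0.00705). *Snai2* and *Zeb2*, repressors of epithelial genes, were counted among the 10, *Zeb2* being named after its values were seen. The difference of *Snai2* was 1.44 (adjusted p = 0.0184), a call lost without 5 of the 8 libraries.

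Trophectoderm is the outer layer of the blastocyst that forms the placenta, and its genes divided. Of 18 genes 8 were higher and 2 lower, with medians of 1.52 with etomoxir and 0.52 with the MYC inhibitor. *Eomes*, a T-box factor of trophoblast stem cells and of the primitive streak, was at 6.52 and 6.62 in ETO, against 1.83 in each H2O library, and did not pass with the MYC inhibitor, at 1.52 and 1.81 in MYCi, against 1.48 and 1.53 in DMSO (difference 1.66, SE 0.12, adjusted p = 0.00146). *Gata3*, another trophoblast factor, was at 1.2 and 1.18 in ETO, against 0.139 and 0.113 in H2O, and at 0.232 and 0.286 in MYCi, against 0.184 and 0.104 in DMSO (difference 1.94, SE 0.29, adjusted p = 0.00853).

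*Krt8* and *Krt19*, keratins of simple epithelium, rose in both pairs, *Krt19* to 33.9 and 36.3 in ETO, against 0.868 and 0.64 in H2O, and to 5.14 and 5.26 in MYCi, against 0.326 and 0.379 in DMSO (differences 1.93 and 1.82). *Cdx2*, the factor that sets trophectoderm apart, went the other way and fell in both pairs, further with etomoxir. It was at 0.218 and 0.169 in ETO, against 3.01 and 2.56 in H2O, and at 0.977 and 1.15 in MYCi, against 3.36 and 2.63 in DMSO (difference -1.89, SE 0.23, adjusted p = 0.00507). *Elf5*, a gatekeeper of the trophoblast lineage, was too low to be tested, at no more than 0.111 in any library. Of 7 trophoblast markers the sum was 12.2 to 13.4 in ETO, against 5.9 to 6.35 in H2O, and 4.59 to 4.84 in MYCi, against 5.16 to 6.39 in DMSO. In ETO it came mainly from *Eomes* and from *Ascl2*, at 3.91 and 4.88 in ETO against 1.26 and 1.32 in H2O. None was at 0 in any group, but *Hand1*, like *Elf5*, was low, at no more than 0.122 in any library.

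Primitive streak and Nodal genes split evenly, 4 higher and 4 lower of 12, with 1 higher without DMSO replicate 1. Beside *Eomes*, *Mesp2*, a factor of nascent mesoderm, was higher, at 1.91 and 1.37 in ETO, against 0.242 and 0.385 in H2O, and at 0.334 and 0.365 in MYCi, against 0.316 and 0.26 in DMSO (difference 1.86, adjusted p = 0.014, and 0.0502 without DMSO replicate 1). The lower ones were led by *Lefty1* and *Lefty2*. In primitive endoderm, the inner extraembryonic layer, 3 of 17 were higher and 4 lower, with 1 higher and 2 lower without ETO replicate 1. *Gata6*, its first factor, was at 2.75 and 2.72 in ETO, against 0.138 and 0.106 in H2O, and at 0.279 and 0.235 in MYCi, against 0.0495 and 0.0632 in DMSO (difference 2.49, SE 0.22, adjusted p = 0.00235). *Lama1*, a laminin of its basement membrane, fell with etomoxir and rose with the MYC inhibitor, at 9.66 and 9.24 in ETO, against 15.3 and 15.1 in H2O, and at 18.1 and 17.7 in MYCi, against 10.2 and 10.5 in DMSO (difference -1.47, SE 0.06, adjusted p = 0.000522).

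Rare ESCs switch on genes of the 2-cell embryo. Of 27 such genes 8 were lower and 1 higher, with medians of -1.17 with etomoxir and -0.23 with the MYC inhibitor, and 4 were lower without MYCi replicate 2. *Zscan4f*, of a cluster that guards telomeres, was at 0.521 and 0.636 in ETO, against 2.52 and 2.68 in H2O, and at 1.62 and 1.5 in MYCi, against 2.01 and 2.35 in DMSO (difference -1.54, SE 0.17, adjusted p = 0.00382). *Zscan4c* had a difference of -1.30 (SE 0.14, adjusted p = 0.00366). The Zscan4 genes are near-identical copies, so that their values are shares of common fragments and do not count as separate genes. *Pramel6*, a leucine-rich repeat gene of naive cells, was the higher one, at 5.53 and 6.05 in ETO, against 2.77 and 2.92 in H2O, and at 1.55 and 1.98 in MYCi, against 1.45 and 1.71 in DMSO (difference 0.85, adjusted p = 0.0261, and 0.0833 without ETO replicate 2). *Duxf3*, the Ensembl entry of the factor that opens this program, was at no more than 0.0279 in any library and was not tested.

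Few repeat families differed in the main fit, though with the replicate number as a block 15 were higher and 17 lower. In the main fit 5 of 1452 families were lower and none higher by limma (0.344%), while 45 were lower and 35 higher at an unadjusted p under 0.05. The medians over families were 0.83 with etomoxir and 0.82 with the MYC inhibitor. These medians are close in size to the overall shift of genes that the scaling removed (0.788 and 0.748). Among the 5 were ETnERV-int and MMETn-int, internal parts of early transposons, with differences of -0.61 (SE 0.073, adjusted p = 0.00697) and -0.58 (SE 0.059, adjusted p = 0.00545). The mean FPKM over loci of MMETn-int was 4.08 and 4.16 in ETO, against 7.36 and 7.22 in H2O, and 7.24 and 7.39 in MYCi, against 8.84 and 8.42 in DMSO. On the scaled values the major satellite GSAT_MM fell with etomoxir and rose with the MYC inhibitor, at 0.319 and 0.311 in ETO, against 0.581 and 0.527 in H2O, and at 0.396 and 0.349 in MYCi, against 0.244 and 0.262 in DMSO (difference -1.33, SE 0.19, adjusted p = 0.0222). That rise, 0.54, was smaller than the overall shift of 0.748, so that GSAT_MM was not higher with the MYC inhibitor in the deposited values. MERVL-int, the retrovirus of the 2-cell embryo, had a difference of 0.02 (SE 0.212, adjusted p = 0.999), at 0.435 and 0.464 in ETO, against 0.285 and 0.227 in H2O, and at 0.482 and 0.437 in MYCi, against 0.257 and 0.27 in DMSO. Its rises on the scaled values, 0.795 with etomoxir and 0.778 with the MYC inhibitor, were no larger than the medians over families.

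Other lists had members past the threshold in both directions, where 8.83% of all genes were higher and 8.53% lower. There were 6 higher and 4 lower of 32 NRF2 and glutathione genes, 3 and 4 of 23 germline genes, 3 and 4 of 20 imprinted genes, 4 and 3 of 12 neural genes, and 3 and 1 of 17 genes of interferon and antigen presentation. With the block these counts were 2 and 2, 2 and 0, 1 and 1, 2 and 3, and 1 and 0. *Hmox1*, the haem oxygenase that NRF2 induces, was at 102 in each ETO library, against 60.6 and 65.9 in H2O, and at 44.1 and 49.7 in MYCi, against 45 and 45.1 in DMSO (difference 0.63, SE 0.10, adjusted p = 0.00981). *Phlda2*, an imprinted gene that restrains the placenta, had a difference of -1.48 (SE 0.09, adjusted p = 0.00107), and *Igf2*, the imprinted growth factor, rose further with the MYC inhibitor (difference -0.67, adjusted p = 0.0356, and 0.112 without ETO replicate 1). *Neurod1*, a neural factor, was higher (2.29, SE 0.21) and *Tubb3*, a neuronal tubulin, lower (-1.49, SE 0.09).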

How the data were processed

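Total RNA depleted of ribosomal RNA was sequenced by the study. Per the methods, reads were trimmed (Trim Galore, cutadapt), mapped to mm10 plus ERCC spike-ins with TopHat2 2.1.1 and cleared of duplicates with SAMtools 1.9. The featureCounts step ignored strand and split ambiguous fragments among Ensembl genes, NONCODE transcripts and HOMER 4.10 repeats, so an antisense partner or near-identical copy cannot be told apart from a gene. The authors deposited FPKM values from edgeR in 1 table per experiment, without the spike-in correction used for their own gene lists.

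Within each table, libraries were divided by median-of-ratios factors. A gene was kept when 2 or more libraries reached an FPKM of 0.1. Values on the log2(scaled FPKM + 0.1) scale, which understates changes of weakly expressed genes, were fitted by limma 3.58.1 (R 4.3.3) with its trend option, 8 libraries in 4 groups together, and p-values were adjusted by Benjamini-Hochberg at 0.05. Repeat families with 10 or more loci and a mean of at least 0.01 were tested as log2(mean FPKM over loci + 0.01). Depth was estimated from the steps between low FPKM values and is rough. The scripts were tested on simulated data.

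Coordinates and names came from GENCODE. Named genes were the 12 largest differences in each direction past the threshold with a group mean of at least 1 and no gene-model or pseudogene name, up to 4 such members of each of 50 lists, and a set of regulators, 215 in all, of which a selection is given. The members and lists were chosen with earlier results of these data known. Alternatives were other scalings, pseudocounts and filters, no trend, the replicate number as a block, and leaving out each library. NONCODE transcripts and the other tables were not used here. Some members of the sterol list are not reported here.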

Additional observations from a re-analysis of the deposited data

How the results depend on the processing

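The difference gave 2340 genes higher and 2260 lower. On the deposited scale it gave 252 higher and 103 lower, while etomoxir alone gave 3324 higher and 13654 lower and the MYC inhibitor alone 1706 higher and 13167 lower. Leaving out 1 library at a time gave 1063 to 1695 higher and 958 to 2413 lower in the difference, 6405 to 8226 higher and 7216 to 8355 lower with etomoxir, and 4193 to 6683 higher and 5863 to 7395 lower with the MYC inhibitor. With the replicate block 712 genes were higher and 636 lower in the difference. The replicate numbers are not stated to pair libraries, and deviations of same-numbered libraries correlated at -0.079 for ETO with H2O and at 0.025 for MYCi with DMSO. Most named genes were picked for large differences in the main fit, and their stability does not stand for that of the other genes. Of the 206 named genes past the threshold, 143 kept the call without each library in turn, 3 could not be fitted without either ETO library, 121 kept it with the replicate block and 55 on the deposited scale, and none reversed its direction under any alternative run.

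For repeat families, with 0 higher and 5 lower, the replicate block gave 15 higher and 17 lower, the deposited scale 1 lower, and a pseudocount of 0.1 gave 1 higher. Leaving out 1 library at a time gave 0 to 19 higher, the most without H2O replicate 1, and 3 to 11 lower. The cause of these changes was not tested. Scaling by ERCC spike-ins was not run, since these tables hold 0 such rows. With 2 libraries per group, a gene whose difference did not pass is not shown to respond alike.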

Other observations

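Among Ensembl gene models, which the rule for named genes left out, 5 nuclear copies of mitochondrial genes on chromosome 1 differed, and they were chosen after their values were seen. *Gm10222* was at 573 and 557 in ETO, against 1800 and 2130 in H2O, and at 1880 in each MYCi library, against 1880 and 2060 in DMSO (difference -1.73, SE 0.22, adjusted p = 0.00539 by limma). *Gm28439*, *Gm10925*, *Gm28437* and *Gm28661* had differences of -1.67, -1.64, -1.49 and -1.73. All 5 fell with etomoxir and did not pass with the MYC inhibitor. The 37 genes of the mitochondrial genome itself were listed at 0 in all 8 libraries, so that fragments of these near-identical sequences cannot be assigned to either genome here.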
